A study of Zea mays with 12 samples.

Results

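The 6 maize genes described here encode 4 DNA methyltransferases (met1, GRMZM2G333916; zmet2, GRMZM2G025592; zmet5, GRMZM2G005310; zmet3, GRMZM2G137366) and 2 chromatin remodelers of the DDM1 type (chr101, GRMZM2G177165; chr106, GRMZM2G071025). They were picked by gene identifier, with earlier results of these data known, and are 6 of 39656 genes in the tables. The question put to them was how the genes tied to DNA replication compared with the others, in both genotypes and both cell types. Endosperm was taken 15 days after pollination from wild type B73 and from nkd mutant plants backcrossed to B73 over 4 generations. Aleurone, the outermost endosperm layer, and starchy endosperm, the storage tissue beneath it, were cut from paraffin sections by laser capture. T7 RNA polymerase amplified the polyA RNA in a linear reaction, a step that can shift relative levels, ahead of 50-base paired-end sequencing. The mutant is named for its naked endosperm and carries lesions in a pair of duplicate genes for zinc finger transcription factors of the INDETERMINATE domain family. Both genotypes and both cell types together made 4 groups of 3 biological replicates, and each of 3 flow cells carried 1 replicate of every group. The sources used here do not say how many kernels or plants went into a library, so p-values measure only the spread between libraries.

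In plants, cytosine methylation is kept up by different enzymes in different sequence contexts. MET1-type enzymes copy CG methylation onto the new strand behind the replication fork, and DDM1-type remodelers of the SNF2 family open nucleosomes so that methyltransferases can reach heterochromatin. Chromomethylases such as zmet2 and zmet5 methylate CHG sites in chromatin that carries methylated histone H3 lysine 9. DRM-type enzymes such as zmet3 act with small RNAs in RNA-directed DNA methylation, which can place methylation anew. In the endosperm, methylation is studied above all for imprinting and for the control of transposable elements.

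Depth over 1 transcript per gene ranged from 9570998 to 64000784 reads per library. Of the mutated loci, Nkd2 had 2091 to 2751 normalised reads in B73 aleurone and 463 to 755 in the mutant, and fell 4.33-fold (limma, adjusted p = 0.00259). It did not pass in starchy endosperm, nor did Nkd1 in either cell type, although the highest nkd library stayed below the lowest B73 library in each of these comparisons. Zeins, the storage proteins that mark starchy endosperm, made up 13.9 to 26.6% of reads in B73 aleurone, 24.3 to 39.1% in B73 starchy endosperm, 0.178 to 0.903% in nkd aleurone and 4.18 to 10.7% in nkd starchy endosperm. A list of 7 aleurone marker genes summed to 0.0862 to 0.366% in B73 aleurone and 0.0150 to 0.0963% in B73 starchy endosperm, which overlapped. In nkd it summed to 0.379 to 1.42% in aleurone and 0.0215 to 0.0887% in starchy endosperm. Among the B73 starchy endosperm libraries replicate 2 was unlike the others, with the lowest zein share (24.3%) and an oil body share of 0.0745% against 0.0195% at the lowest. A list of 12 basal transfer layer genes summed to 0.0377% of reads in nkd aleurone replicate 3 and 0.0716% in nkd starchy endosperm replicate 3, against at most 0.00578% in any other library. A list of 4 embryo-surrounding region genes was also highest in nkd aleurone replicate 3, at 0.00262%. A list of 9 genes taken by name as markers of maternal pericarp and nucellus consisted mostly of laccase genes. In each group 1 of the 9 was at 0, but not the same gene throughout. The list summed to 0.000869 to 0.00198% in B73 and 0.00706 to 0.0173% in nkd aleurone. In starchy endosperm it summed to 0.000199 to 0.000775% in B73 and 0.00212 to 0.00961% in nkd. The part of these other tissues in the results below was not tested, and in such bulk samples fewer cells of a type and less RNA per cell cannot be told apart.

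In aleurone, zmet5 rose in nkd and the other 5 genes did not pass the test. The share of all tested genes that was called was 14.6%, with 6.32% called higher, so 1 of 6 is close to the background. All 6 log2 differences lay above 0, from 0.20 for zmet3 to 1.87 for zmet5, and 51.8% of all tested genes did so. The median of the 6 was 0.86, beside 0.04 over all genes. For 2 of the 6, zmet5 and met1, all nkd libraries lay above all B73 libraries, as did 16.8% of all tested genes. The plot of normalised reads by library shows that the separation of zmet5 was wide and that of met1 narrow.

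**Figure D1:**
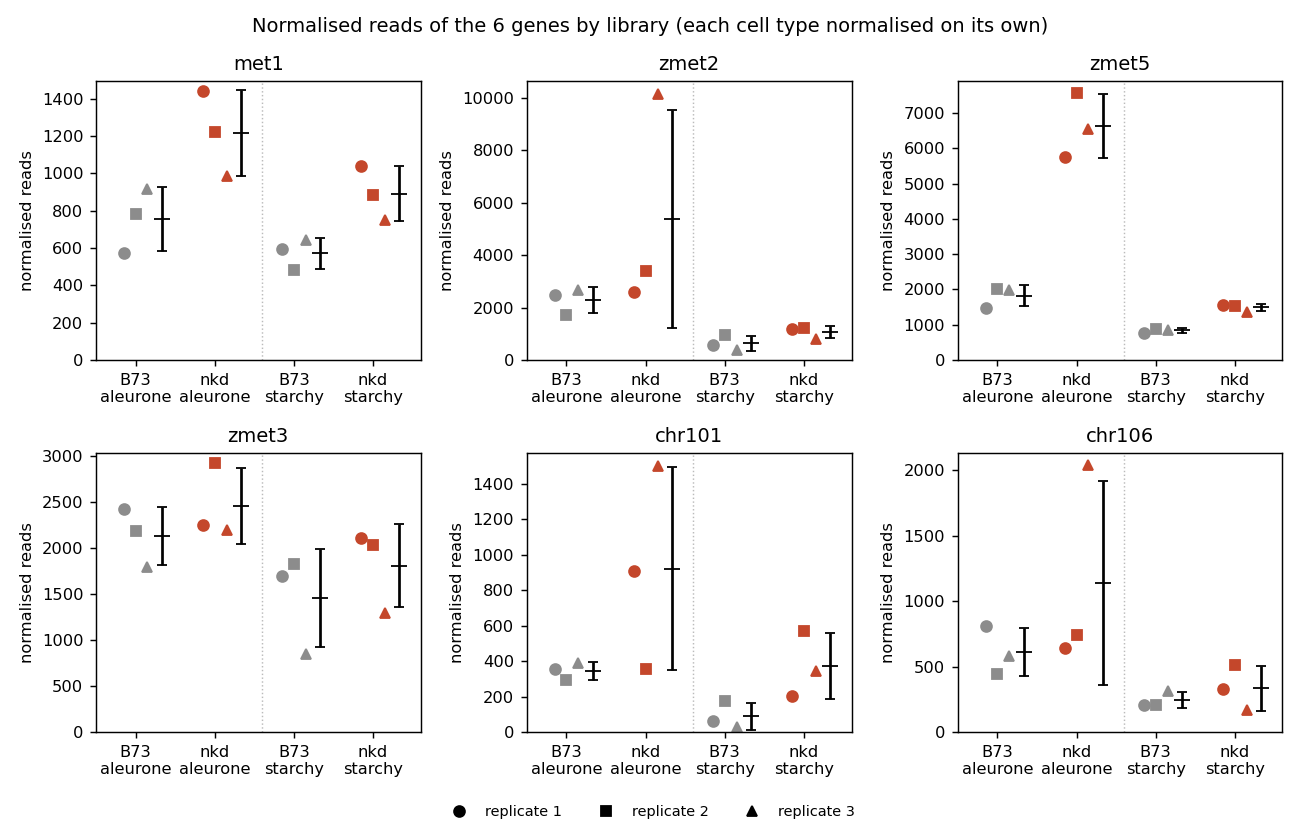
Normalised reads (y axis, linear, within-cell-type scaling) of each gene in 12 libraries; symbols give the replicate, bars the mean ± SD of 3 libraries. zmet5 stands at 5763 to 7567 in nkd aleurone against 1475 to 2020 in B73 aleurone, and zmet2 and chr106 in nkd aleurone are each highest in replicate 3.

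The chromomethylase gene zmet5 gave the clearest difference. It had 1475, 2020 and 1973 normalised reads in the 3 B73 aleurone libraries and 5763, 7567 and 6559 in the 3 nkd aleurone libraries. The lowest nkd library was above the highest B73 library, and the replicates of each group lay close together. The means of 1823 ± 302 and 6629 ± 904 (SD, n = 3) gave a log2 difference of 1.87 (SE 0.29), a 3.65-fold rise (limma with Benjamini-Hochberg adjustment, adjusted p = 0.00344). For starchy endosperm the gene zmet5 had 770, 888 and 865 normalised reads in B73 and 1568, 1534 and 1373 in nkd. The groups did not overlap there either. The log2 difference of 0.83 (SE 0.33) did not pass (limma, unadjusted p = 0.0283, adjusted p = 0.263).

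The second chromomethylase gene, zmet2, did not show the same pattern. Its normalised reads were 2481, 1739 and 2691 in the B73 aleurone libraries and 2597, 3403 and 10160 in those of nkd. Replicate 3 of nkd held 2.99 times the next highest library, and replicate 1 lay within the B73 range. The log2 difference was 0.98 (SE 0.49; limma, adjusted p = 0.217), and 0.39 without nkd replicate 3, the library with the high share of basal transfer layer genes. In starchy endosperm zmet2 had 593, 956 and 368 normalised reads in B73 and 1194, 1216 and 820 in nkd. The groups overlapped, because nkd replicate 3 lay below B73 replicate 2. That nkd library held the highest share of basal transfer layer genes and the lowest zmet2 value of its group. A link between this share and zmet2 was not tested. The log2 difference of 0.84 (SE 0.43) did not pass (limma, adjusted p = 0.398).

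The DRM-type gene zmet3 had the smallest difference in aleurone. It had 2420, 2179 and 1791 normalised reads in the B73 aleurone libraries and 2244, 2924 and 2192 in those of nkd. Only nkd replicate 2 lay outside the B73 range, and the log2 difference was 0.20 (SE 0.29; limma, adjusted p = 0.700). In starchy endosperm the values were 1693, 1823 and 847 in B73 and 2107, 2029 and 1288 in nkd. The groups overlapped, with replicate 3 the lowest in both genotypes, and the log2 difference was 0.36 (SE 0.40; limma, adjusted p = 0.714). The 2 annotated transcripts of zmet3 held identical values in every library, so the tables do not separate them.

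Because zmet3 differed little between genotypes in aleurone, the ratio of each of the other 5 genes to zmet3 in the same library was examined. The ratio does not depend on the scaling of a library. For zmet5 it was 0.610, 0.927 and 1.10 in the B73 aleurone libraries and 2.57, 2.59 and 2.99 in those of nkd, so that the groups did not overlap. The difference in log2 ratio was 1.67 (exact permutation test, two-sided, p = 0.1, the smallest that 3 against 3 libraries allow; adjusted p = 0.333 over 10 ratios). In starchy endosperm the zmet5 ratio was 0.455 to 1.02 in B73 and 0.744 to 1.07 in nkd, and the groups overlapped. There the ratios of zmet2 (0.350 to 0.524 in B73, 0.567 to 0.636 in nkd) and chr101 (0.0365 to 0.0959 in B73, 0.0961 to 0.280 in nkd) did not overlap, each also at the exact permutation p = 0.1. The other 6 ratios overlapped between genotypes. At this floor none of the 10 ratios could pass, and the share of all genes without overlap was not worked out for ratios. The reference zmet3 was picked from these same data. In starchy endosperm its own log2 difference was 0.36, so the ratios there carry that difference too.

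The CG methyltransferase gene met1 was higher in nkd by a modest and uncalled margin in both cell types. It had 575, 781 and 918 normalised reads in the B73 aleurone libraries and 1445, 1223 and 986 in those of nkd. The groups did not overlap, but the nearest values, 918 and 986, were closer than the replicates within either group. The log2 difference was 0.69 (SE 0.32; limma, adjusted p = 0.183). In starchy endosperm met1 had 595, 481 and 641 normalised reads in B73 and 1042, 886 and 748 in nkd. The groups again did not overlap, and the log2 difference was 0.64 (SE 0.36; limma, adjusted p = 0.441).

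The RefSeq table used for names does not list GRMZM2G333916 and gives the name dmt101, of the MET1-type gene, to GRMZM2G334041 and GRMZM2G333997. GRMZM2G334041 ran parallel to met1, with 557 ± 120 and 905 ± 210 normalised reads in B73 and nkd aleurone (SD, n = 3; log2 difference 0.70, limma, adjusted p = 0.196). The starchy endosperm means were 363 ± 68.3 and 720 ± 62.7 (log2 difference 1.00, limma, adjusted p = 0.241). GRMZM2G333997 had log2 differences of -0.16 in aleurone and 0.11 in starchy endosperm, with overlapping groups. The sources used here do not say how reads shared by near-identical copies were counted, so values for single copies are uncertain.

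The remodeler gene chr101 had the largest difference of the 6 in starchy endosperm and varied widely. Its normalised reads there were 61.8, 175 and 31.4 in B73, from 29, 389 and 7 reads, and 203, 569 and 343 in nkd. The groups did not overlap, with replicate 2 the highest in both genotypes. The log2 difference of 2.27 (SE 0.71) passed before adjustment and not after it (limma, unadjusted p = 0.00857, adjusted p = 0.156), and it was 2.92 without B73 replicate 2 (adjusted p = 0.0877). In aleurone chr101 had 356, 292 and 387 normalised reads in B73 and 908, 357 and 1498 in nkd. Replicate 2 of nkd lay within the B73 range and the other 2 above it. The log2 difference was 1.20 (SE 0.49; limma, adjusted p = 0.138). It passed in a DESeq2 test (adjusted p = 0.0351) and with limma without nkd replicate 2 (log2 difference 1.76, adjusted p = 0.0214), and stood at 0.73 without nkd replicate 3.

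The other DDM1-type gene, chr106, showed no difference that held across libraries. It had 811, 447 and 578 normalised reads in the B73 aleurone libraries and 642, 741 and 2036 in those of nkd. Replicates 1 and 2 of nkd lay within the B73 range, and replicate 3 held 2.75 times the next nkd library. The log2 difference was 0.73 (SE 0.46; limma, adjusted p = 0.336), and 0.21 without nkd replicate 3. In starchy endosperm chr106 had 207, 211 and 314 normalised reads in B73 and 326, 513 and 165 in nkd. Replicate 3 of nkd was the lowest of all 6 and replicate 2 the highest. The log2 difference of 0.34 (SE 0.52; limma, adjusted p = 0.798) was -0.04 without nkd replicate 2.

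In starchy endosperm, then, 0 of the 6 genes passed in limma, and 0 passed in edgeR and in DESeq2. The share called over all tested genes was 1.78%, with 0.464% called higher. At an unadjusted p under 0.05 there were 2, zmet5 and chr101. All 6 log2 differences lay above 0, from 0.34 to 2.27, with a median of 0.73 beside 0.12 over all genes, of which 54.7% lay above 0. For 3 of the 6 genes (met1, zmet5 and chr101) all nkd libraries lay above all B73 libraries, as did 11.3% of all tested genes.

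The DDM1-type genes were grouped with met1 as replication-linked, an assumption that was not tested here. In this grouping the replication-linked genes did not stand apart from the others. The log2 differences of met1, chr101 and chr106 in aleurone were 0.69 to 1.20 with a median of 0.73, and none of the 3 passed. Those of zmet2, zmet5 and zmet3 were 0.20 to 1.87 with a median of 0.98, and the 1 called gene was among them. In starchy endosperm the medians were 0.64 and 0.83, and the ranges overlapped (0.34 to 2.27 against 0.36 to 0.84). The highest and the lowest difference in aleurone thus both fell among the methyltransferases that are not tied to the replication fork. In starchy endosperm both fell among the replication-linked genes, with chr101 the highest (2.27) and chr106 the lowest (0.34).

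Some genes of DNA replication itself also rose in nkd. In aleurone 4 of 9 tested replication genes rose and 5 did not pass, where 6.32% of all tested genes were called higher. Their median log2 difference was 1.08, beside 0.86 for the 6 genes above and 0.04 over all genes, and the lists were not tested against each other. They were pcna1 and pcna2, the sliding clamp of the replication fork, and MCM6 and MCM7, subunits of the replicative helicase. The PCNA gene pcna1 had 1258, 1910 and 1995 normalised reads in the B73 aleurone libraries and 5254, 7907 and 7354 in those of nkd, a log2 difference of 2.00 (SE 0.32; limma, adjusted p = 0.00390). MCM6 rose by 2.21 on the log2 scale (SE 0.64; limma, adjusted p = 0.0469), pcna2 by 2.02 (SE 0.34; adjusted p = 0.00469) and MCM7 by 1.46 (SE 0.40; adjusted p = 0.0381). The flap endonuclease gene FEN1 (1.08) and the origin recognition genes orc1 (0.80), orc2 (0.67), orc4 (-0.10) and orc3 (-0.40) did not pass. The count of 4 was 2 without any one of B73 aleurone replicates 1 and 3 and nkd aleurone replicate 2, and 2 in 1 fit over 12 libraries.

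In starchy endosperm, where 0.464% of all tested genes were called higher, 2 of the 9 replication genes rose, MCM6 by 2.82 on the log2 scale (SE 0.56; limma, adjusted p = 0.0343) and pcna1 by 2.41 (SE 0.43; adjusted p = 0.0256). The median of the 9 was 1.77 beside 0.12 over all genes, and all 9 lay above 0. The count fell to 0 or 1 when any one library was left out, and ranged from 1 (edgeR) to 4 (DESeq2) with other tests. Of the 6 genes described here, chr101 in starchy endosperm and zmet5 in aleurone came nearest to the differences of the PCNA and MCM genes, as the plot of log2 differences shows.

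**Figure D2:**
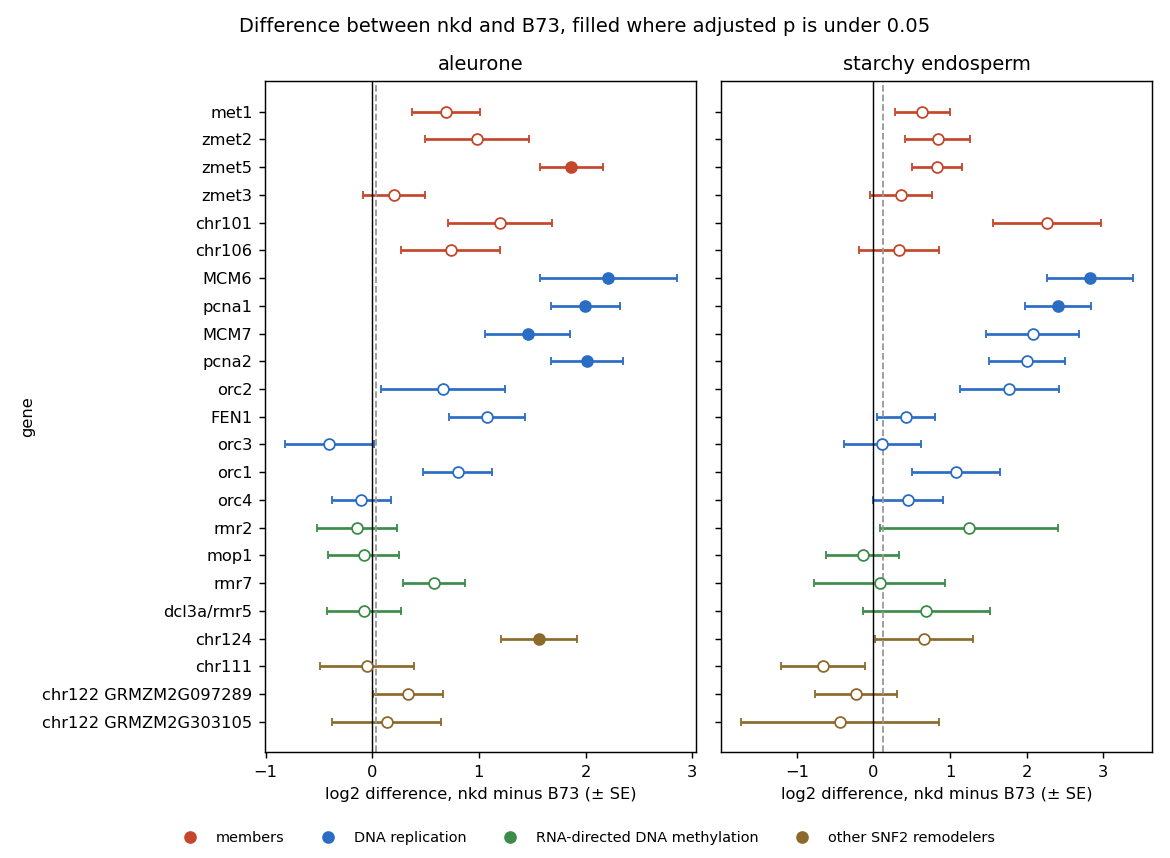
Log2 difference, nkd minus B73 (x axis, bars ± SE, n = 3 per group), of the 6 genes and of 3 gene lists in aleurone and starchy endosperm; the dashed line is the median over all tested genes. Filled points passed an adjusted p of 0.05 in limma: zmet5 at 1.87 is the only filled point of the 6 in aleurone, and none of the 6 is filled in starchy endosperm.

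Other genes of the cell cycle gave mixed counts, to be read against the 6.32% of all tested genes called higher in aleurone and the 0.464% in starchy endosperm. Of 9 cyclins and mitotic kinases 5 rose in aleurone and 0 in starchy endosperm, among them cyclin9 (5.62-fold) and cyclin4 (4.08-fold; limma, adjusted p = 0.00524 and 0.0190). In each cell type 7 of the 9 lay above 0, as did 51.8% of all tested genes in aleurone and 54.7% in starchy endosperm. For cyclin-C the genotypes overlapped in aleurone (526 to 750 normalised reads in B73, 493 to 718 in nkd). The nkd aleurone libraries of cdc2 lay narrowly above those of B73 (1978 to 3345 against 1158 to 1951), as did 16.8% of all tested genes without overlap. Of 10 core histone genes 2 rose in each cell type, and H3C2 (named after its values were seen) rose in both, 3.73-fold in aleurone and 3.65-fold in starchy endosperm. Of the 4 with the highest mean, H4C13 (GRMZM2G149178) lay higher in nkd without overlap in both cell types. In aleurone his2b2 did so too, and in starchy endosperm H4C13 (GRMZM2G084195). Over all tested genes 16.8% and 11.3% did so. For histone2b1 the genotypes overlapped in both cell types (aleurone 1924 to 26065 normalised reads in B73, 2899 to 10150 in nkd). Histone genes are a family of near-identical copies whose single values are uncertain. Of 4 genes on the list of retinoblastoma-related proteins and the kinase wee1, rbr3 (2.96-fold) and wee1 (2.66-fold) rose in aleurone, and 0 passed in starchy endosperm (limma, 0.0393 and 0.0161 as adjusted p in aleurone). The other 2, RBR1 and RBR2, did not pass in aleurone. RBR1 overlapped there, while RBR2 lay lower in nkd without overlap (73.9 to 157 against 172 to 326 normalised reads), as did 16.8% of all tested genes.

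Counts for other genes of the methylation machinery were near the background of 14.6% called in aleurone and 1.78% in starchy endosperm. Of 4 tested genes of RNA-directed DNA methylation, the pathway in which DRM-type enzymes act, 0 passed in either cell type. In aleurone the log2 differences were -0.08 for mop1, an RNA-dependent RNA polymerase, -0.08 for dcl3a/rmr5, a Dicer-like enzyme, -0.14 for rmr2 and 0.58 for rmr7. Of 4 other identifiers annotated as DNA methyltransferases (dmt106, met4 and both dmt101 identifiers) 0 passed in either cell type. The gene met4 had log2 differences of 0.49 in aleurone and -0.81 in starchy endosperm, with overlapping groups.

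Of 12 genes for methyl-CpG-binding domain proteins and histone partners, 11 did not pass in either cell type and 1 was not counted. Over all tested genes 8.28% were called lower in aleurone and 1.31% in starchy endosperm. The 1 not counted was mbd123 (GRMZM2G119802), named after its values were seen. In both cell types it reached the minimum mean of the test only through the B73 libraries, where it is high. Its values are therefore given as a description with no test. Its aleurone level was 273 ± 107 normalised reads in B73 and 4.40 ± 2.18 in nkd (SD, n = 3). In starchy endosperm it had 85.6 ± 61.6 in B73 and 0 reads in all 3 nkd libraries. Of 7 listed SNF2 remodelers other than the DDM1 type, 4 reached the minimum mean of the test. In aleurone 1 of the 4 rose, where 6.32% of all tested genes were called higher, and 0 passed in starchy endosperm. The gene that rose was chr124 (GRMZM2G049766), 2.96-fold from 173 ± 44.9 to 512 ± 118 normalised reads (limma, adjusted p = 0.0187). Other identifiers named chr124 were not tested. The 3 other tested genes, chr111 and 2 chr122 identifiers, overlapped between genotypes in aleurone. No gene of a list of DNA demethylation genes was matched by name.

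The 6 genes have 11 annotated transcripts in the tables, and a minor transcript each of met1 and chr106 was nearly without reads in B73 aleurone. These were picked out after their values were seen. In aleurone both reached the minimum mean of the test only through the nkd libraries, where they are high, so their reads are given as a description with no test. The second transcript of met1 held 0, 0 and 10 reads in replicates 1, 2 and 3 of B73 aleurone, against 87, 96 and 145 in nkd. Every nkd library was above every B73 library, while the first transcript, which represents met1 above, differed by 0.69 on the log2 scale.

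Relative to the first transcript, the second transcript of met1 stood at 5.31 to 9.28% in nkd aleurone and at 0.654% in B73 replicate 3. The 0 reads of B73 replicates 1 and 2 allow up to 0.424% and 1.46% (3 reads of the first transcript's total; counting error only). In starchy endosperm the second transcript held 0, 8 and 1 reads in B73 and 120, 3 and 203 in nkd. Replicates 1 and 3 of nkd were high and replicate 2, at 0.171% of the first transcript, was as low as B73. The second transcript of GRMZM2G334041 held 0, 0 and 7 reads in the B73 aleurone libraries, against 74, 82 and 121 in those of nkd. In starchy endosperm it held 0, 6 and 1 reads in B73 and 111, 1 and 168 in nkd. Both identifiers may count the same reads, so these values are no second observation.

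The third transcript of chr106 held 1, 0 and 0 reads in B73 aleurone against 13, 11 and 32 in nkd. That made 56 reads in nkd aleurone against 1 in B73 aleurone, and no ratio is given on 1 read. In starchy endosperm it held 1, 0 and 1 reads in B73 and 15, 1 and 4 in nkd. These values rest on few reads, and how reads were assigned among the transcripts of a gene is not stated. The first transcript of zmet5 was well covered in both genotypes, at 67.2 to 86.6% of the reads of the transcript used in aleurone. It also rose there (log2 difference 1.79, limma over all transcripts, adjusted p = 0.00347), in a fit added after the data had been seen that called 13.5% of transcripts in aleurone and 2.01% in starchy endosperm.

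**Figure D3:**
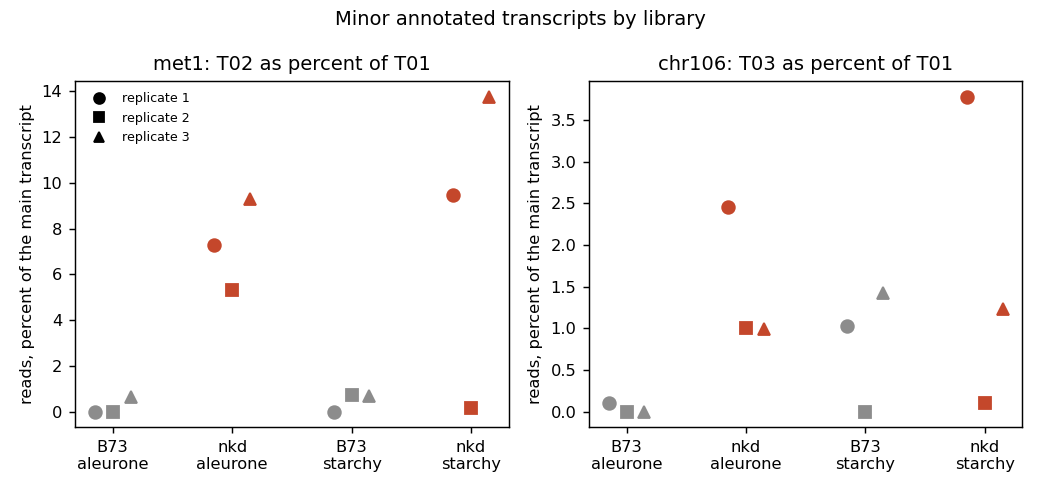
Reads of the second transcript of met1 and the third transcript of chr106 as a percentage of the first transcript of the same gene (y axis, linear) in each of 12 libraries; symbols give the replicate. The met1 transcript lies between 5.31 and 9.28% in nkd aleurone and at 0 to 0.654% in B73 aleurone, and nkd starchy endosperm replicate 2 lies at 0.171%.

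Cell types were compared on 1 scale, as RPM, the reads of a library scaled to a common total with TMM factors, over 12 libraries. In B73, 0 of the 6 genes differed between aleurone and starchy endosperm (edgeR; 0 at an unadjusted p under 0.05; 0 with DESeq2 and with limma). The share called over all tested genes was 0% as well, and 400 genes were called without B73 starchy endosperm replicate 2, where 0 of the 6 passed. In B73 met1 was lower in all 3 aleurone libraries (14.2 to 22.3 RPM) than in all 3 starchy endosperm libraries (24.0 to 27.9), as were 8.41% of tested genes (log2 difference -0.52, edgeR, adjusted p = 0.420). The other 5 overlapped between the cell types of B73, so 0 of 6 lay above without overlap, as did 16.1% of tested genes. For chr101 the log2 difference was 0.91 and rose to 1.95 without B73 starchy endosperm replicate 2 (edgeR, adjusted p = 0.126).

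In nkd, zmet5 was higher in aleurone and the other 5 genes did not pass, where 6.48% of all tested genes were called with 3.28% called higher in aleurone and 3.2% lower. The gene had 134, 181 and 155 RPM in nkd aleurone and 74.3, 74.9 and 62.5 in nkd starchy endosperm, without overlap. The log2 difference was 1.15 (SE 0.28; edgeR, adjusted p = 0.0276). The call was lost when nkd aleurone replicate 2 or 3 or any of the 3 nkd starchy endosperm libraries was left out (adjusted p = 0.0513 to 0.0898, log2 difference 1.04 to 1.19). Also without overlap were zmet2, higher in nkd aleurone (log2 difference 1.32, edgeR, adjusted p = 0.150, nearest values 60.5 and 59.4), and met1, lower there (-0.56, adjusted p = 0.315). Of all tested genes 16.0% lay above and 12.5% below without overlap.

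**Figure D4:**
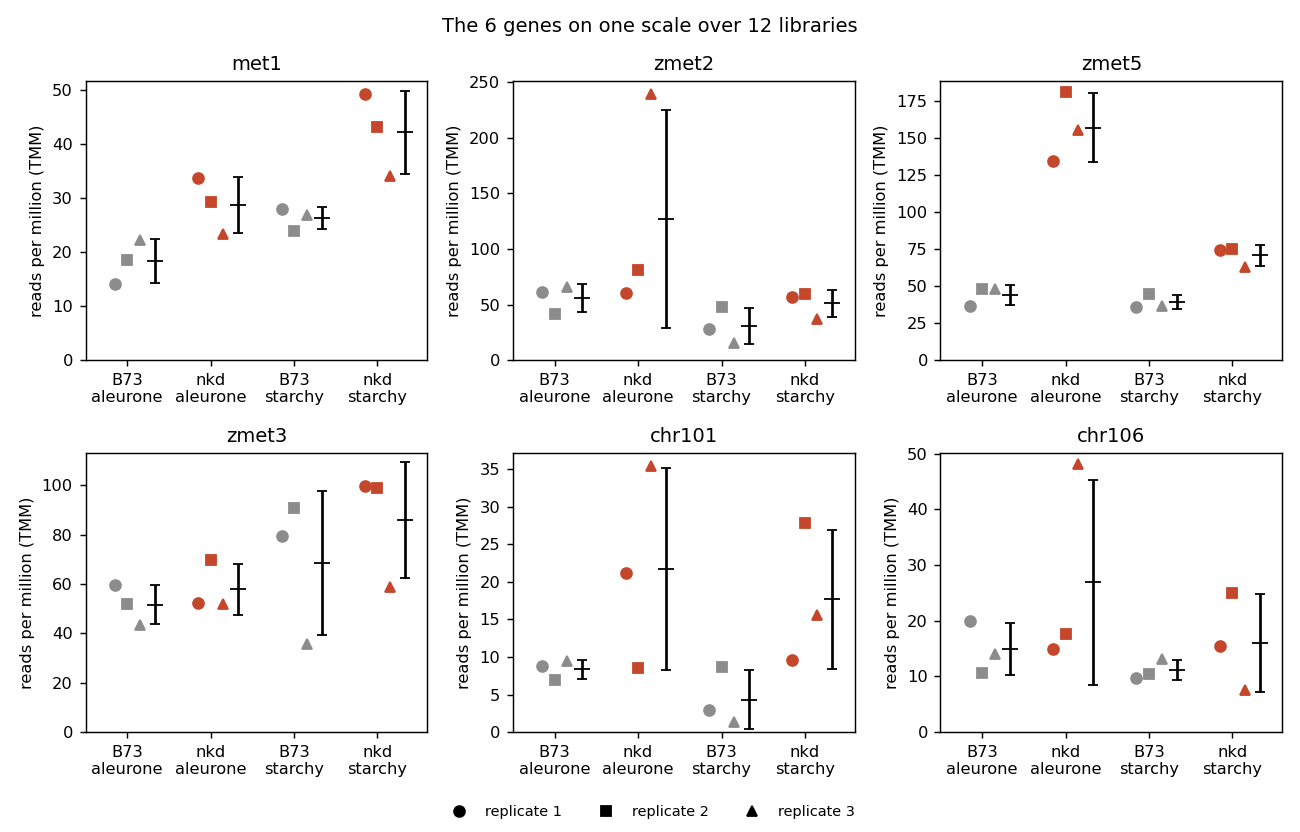
RPM with TMM factors (y axis, linear, 1 scale over 12 libraries) of each gene by group; symbols give the replicate, bars the mean ± SD of 3 libraries. zmet5 stands at 134 to 181 in nkd aleurone and at most at 74.9 in any library of the other 3 groups.

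The order of the 4 groups differed from gene to gene. For zmet5 it was nkd aleurone (157 ± 23.3 RPM, SD, n = 3), nkd starchy endosperm (70.6 ± 6.99), B73 aleurone (44.1 ± 6.76) and B73 starchy endosperm (38.9 ± 4.71), and the B73 groups did not differ beyond their spread. For met1 it was nkd starchy endosperm (42.2 ± 7.69), nkd aleurone (28.7 ± 5.20), B73 starchy endosperm (26.3 ± 2.02) and B73 aleurone (18.4 ± 4.08), where the middle groups overlapped. The order of zmet3 was nkd starchy endosperm (85.9 ± 23.6), B73 starchy endosperm (68.7 ± 29.3), nkd aleurone (58.0 ± 10.3) and B73 aleurone (51.7 ± 8.03), and no neighbours in it differed beyond their spread. The methyltransferases therefore had no common order, with nkd aleurone at the top for zmet5 and starchy endosperm at the top for met1 and zmet3.

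For zmet2 the order was nkd aleurone (127 ± 98.1 RPM), B73 aleurone (56.0 ± 12.8), nkd starchy endosperm (51.1 ± 12.02) and B73 starchy endosperm (30.3 ± 16.3). For chr101 it was nkd aleurone (21.7 ± 13.4), nkd starchy endosperm (17.7 ± 9.26), B73 aleurone (8.37 ± 1.27) and B73 starchy endosperm (4.32 ± 3.90). For chr106 it was nkd aleurone (26.9 ± 18.4), nkd starchy endosperm (16.0 ± 8.77), B73 aleurone (14.9 ± 4.72) and B73 starchy endosperm (11.1 ± 1.81). Neighbouring groups overlapped in all 3 of these genes except chr101 between nkd starchy endosperm and B73 aleurone, where the ranges were 9.60 to 27.8 and 6.95 to 9.41.

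The nkd effect on the 6 genes was not shown to differ between the cell types. The difference of the effects, aleurone minus starchy endosperm, was 0.97 on the log2 scale for zmet5 (SE 0.39; edgeR, unadjusted p = 0.0277, adjusted p = 0.571), the 1 gene of 6 with an unadjusted p under 0.05. It lay between -0.61 (chr101) and 0.44 (zmet2) for the other 5. Over all genes edgeR called 0 (0%), limma 1 and DESeq2 194, and 0 of the 6 were among the calls of any of them.

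Within the 12 libraries the 6 genes did not follow the replication genes alike, as the plot against the summed replication genes shows. The 9 replication genes summed to 149 to 244 RPM in the B73 libraries and to 432 to 811 in the nkd libraries, so that genotype alone separated them and no correlation over all libraries is given. Among the nkd aleurone libraries zmet5 and zmet3 were highest in replicate 2, where the replication genes also had their highest sum, and chr101 was lowest there. MCM6 weighed heavily in that sum (10492 normalised reads, against 3424 and 2434 in replicates 1 and 3), and pcna2 was highest in replicate 3. Among the nkd starchy endosperm libraries zmet2, chr101 and chr106 were highest in replicate 2, again the library with the highest sum. In replicate 3 of that group 5 of the 6 genes were lowest. That library had the lowest sum of its group (480, against 521 and 682 RPM) and also the high share of basal transfer layer genes. For zmet5 the order of replicates 1 and 2 there turned with the scaling, at 74.3 and 74.9 RPM but 1568 and 1534 normalised reads.

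**Figure D5:**
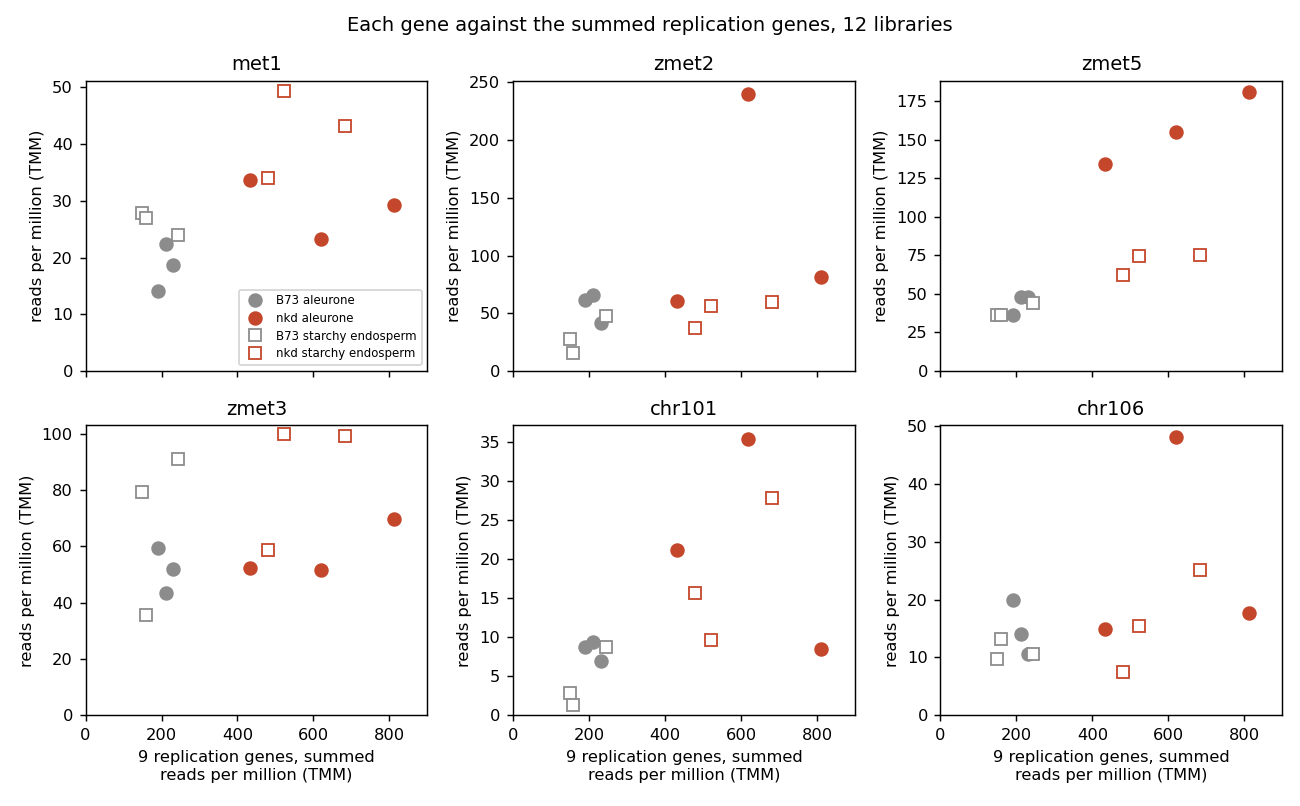
Each gene (y axis, RPM with TMM factors) against the sum of 9 replication genes (x axis, same unit) in 12 libraries; fill and shape give cell type, colour genotype. The nkd libraries all lie at 432 or more on the x axis and the B73 libraries at 244 or less, and zmet5 is at 134 to 181 in nkd aleurone, 62.5 to 74.9 in nkd starchy endosperm and 36.1 to 48.1 in the B73 libraries.

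Named genes with the most similar profile were sought by Pearson correlation of log2 values (RPM, pseudocount 1) over 12 libraries among 135 candidates, a description in which shared group differences weigh heavily. For zmet5 they were VP8 (r = 0.895), the histone deacetylase gene HDA108 (0.889) and sfp3 (0.734). For zmet2 they were mbd115, for a methyl-CpG-binding domain protein (0.922, and 0.906 without nkd aleurone replicate 3), TUBB2 (0.864) and IDI2 (0.789). For met1 they were eIF4E1 (0.766), RAB2B and pco097024a, for zmet3 RAB2B (0.791), eIF4E1 and IDP798, for chr101 IDP351 (0.840), OBF1 and mbd115, and for chr106 sbp17 (0.827), MNB1B and mbd105. Among the 6 themselves the coefficients ran from -0.08 (met1 with zmet2) to 0.79 (zmet2 with chr101), and met1 and zmet3 shared 2 of their 3 nearest genes.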

How the data were processed

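Members and gene lists were chosen with earlier results of these data known. The authors deposited, per cell type, a table of signal values for 63540 transcripts of 39656 genes. FastQC, TopHat and DESeq appear in the submitters' processing notes, with no version. The sources used here do not give the build, the annotation, the strand use or the handling of multiply mapping reads. Within each library 100% of the deposited signal values were whole multiples of 1 step (tolerance 0.01), so dividing by that step gave back the whole reads. The tables were scaled separately, so normalised reads are compared only within a cell type.

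The transcript with the highest mean stood for its gene. Within a cell type, limma 3.58.1 (empirical Bayes with a trend, R 4.3.3) compared the genotypes on log2(value + 1) wherever the mean was 5 or more. The pseudocount understates the change of low genes. An edgeR 4.0.16 quasi-likelihood test on the recovered reads called 3552 genes in aleurone, against 3868 with limma, and 212 in starchy endosperm, against 437. For cell types and for the interaction with genotype, edgeR (TMM factors) was run on the recovered reads of 12 libraries wherever the mean was 5 reads or more. DESeq2 1.42.0 was an alternative. All p-values are two-sided, adjusted by Benjamini-Hochberg, and called under 0.05. On simulated counts for the 26496 genes of the aleurone comparison, limma recovered 13% of 2-fold and 96% of 4-fold changes. For the 24582 genes of the starchy endosperm comparison it recovered 13% and 93%. In both simulations few genes were changed and every gene had the same variation.

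Besides the 6 genes, up to 4 genes of each list (8 for DNA replication) with the highest mean were to be named, and for each of the 6 the 3 named genes with the most similar profile. The labels tie replicate numbers to flow cells, so the numbers pair the libraries. Deviations from group means correlated at -0.149 to 0.168 (median 0.02) over 18 same-numbered pairs and at -0.326 to 0.231 over 36 others. Gene names came from a RefSeq table, which matched 18774 of 39656 identifiers and holds 5 of the 6 genes. No gene lengths of the files' annotation and no sequences were used, so levels are not compared between genes. Alternatives were other pseudocounts, filters, scalings and tests, a replicate block, another transcript per gene, leaving out each library, and a fit over all transcripts, added after seeing the data. Tables and plots came from Python 3.11.15 with numpy 2.4.6, pandas 2.3.3 and matplotlib 3.10.9.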

Additional observations from a re-analysis of the deposited data

How the results depend on the processing

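The rise of zmet5 in nkd aleurone kept its direction and its call under all alternatives run, with log2 differences of 1.72 to 1.96 and adjusted p of 0.00655 to 0.0212 when 1 library was left out. With the replicate block (flow cell) its adjusted p was 0.01005, and that of zmet5 between the cell types of nkd was 0.0413; the replicate block changed no call among the 6 genes, and the pairing comes from the labels. The count of the 6 called in aleurone was 1 under all other settings except DESeq2, where it was 2, and it ranged from 1 to 2 with a library left out. In starchy endosperm it stayed at 0, as did the counts between cell types of B73 and for the difference of the effects. Between cell types of nkd it ranged from 0 to 1 with a library left out. The count of replication genes called in aleurone was 2 in 1 fit over 12 libraries and ranged from 2 to 4 with a library left out. In starchy endosperm it was 1 without a filter on low values, 1 with edgeR, 4 with DESeq2 and 4 in 1 fit over 12 libraries, and ranged from 0 to 1 with a library left out. The cause was not tested.

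Over all genes, the calls in aleurone were 1735 in 1 fit over 12 libraries (521 higher) and 1945 to 3724 with a library left out, against 3868 (1675 higher) within the cell type. In starchy endosperm they were 215 without a filter, 212 with edgeR, 1721 with DESeq2 and 1374 in 1 fit over 12 libraries, against 437, and 25 to 211 with a library left out. Between cell types DESeq2 called 1438 genes in B73 and 3897 in nkd, against 0 and 1729 with edgeR, and limma called 416 and 2535; edgeR called 400 in B73 without starchy endosperm replicate 2 and 652 to 2554 in nkd with a library left out. Directions of uncalled genes turned in 13 cases. The met1 difference of effects became 0.0373 with DESeq2 size factors and 0.0339 with DESeq2. With a library left out, the difference of effects ranged from -0.20 to 0.16 for met1, -0.38 to 0.79 for zmet2, -0.41 to 0.17 for zmet3 and -0.33 to 0.81 for chr106. The chr106 difference in starchy endosperm ranged from -0.0436 to 0.77 and the chr101 difference between cell types of nkd from -0.24 to 0.78. With 3 libraries a group, limma recovered 13% of simulated 2-fold changes in each cell type. The simulation changed few genes and gave every gene the same variation, while 3868 genes were called in the aleurone data. The adjusted threshold therefore differed, and the 13% does not give the recovery in these data. In nkd aleurone the SD was 77.1% of the mean for zmet2, 68.2% for chr106 and 62.0% for chr101. It was 13.6 to 18.8% for the other 3 genes. Recovery at the higher variation was not simulated. The reads of chr101 in B73 starchy endosperm (7 to 389) also limit its precision.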
